A study of Mus musculus with 6 samples.

Results

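RCOR3 and SIN3B stand for the CoREST and the SIN3 corepressor that the transcriptional repressor REST recruits, and their binding sites in E14 mouse embryonic stem cells were compared peak by peak. The comparison used the complete RCOR3 list of 3729 peaks and the complete SIN3B list of 5294 peaks, together 9023 of the 13892 peaks that the 6 lists of the study held once a crowded stretch of chromosome X (165.3 to 165.4 Mb) was left out. A peak counted as shared when a peak of the other list on the same chromosome had its midpoint less than 400 bp away, and as list-only otherwise. The same distance decided whether a peak lay at a REST peak, and the REST list held 3080 peaks.

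All cells were E14 at passages 15 to 18. RCOR3 and SIN3B were each precipitated with a V5 antibody from a stable E14 line that expresses an added, epitope-tagged copy of the protein at a low level. The transgene label of the SIN3B line gives the tag as VG, whereas its antibody label and the description of the study give V5. REST was precipitated from E14 with an antibody against REST itself, and so was SIN3A with its own antibody, while tagged RCOR1 and RCOR2 lines were treated like the RCOR3 line. Each protein had 1 library, whether a tagged line was 1 clone is not given in the sources used here, and a list from cells without a tag was not analysed here. There was therefore no replicate error and no test between proteins: shares carry exact 95% Clopper-Pearson intervals that cover counting error only, and peaks of 1 library are not replicates.

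REST binds a long DNA element in the regulatory regions of many neuronal genes and keeps them silent outside neurons. Its C-terminal repression domain contacts CoREST proteins, scaffolds for histone deacetylases and for the histone demethylase LSD1, and its N-terminal domain contacts SIN3 proteins, scaffolds for a separate histone deacetylase complex. RCOR3 is a CoREST family member and SIN3B a SIN3 family member, and neither binds a specific DNA sequence by itself. SIN3 proteins are also brought to DNA by many factors other than REST.

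The peaks that RCOR3 and SIN3B had in common were mostly REST sites, and the peaks in only 1 of the lists were mostly elsewhere. SIN3B was present at 27.9% of RCOR3 peaks (1039 of 3729, 26.4 to 29.3%), and RCOR3 at 19.6% of SIN3B peaks (1038 of 5294, 18.5 to 20.7%). Over each whole list, 25.7% of RCOR3 and 21.7% of SIN3B peaks lay at REST. Among the shared peaks this share was 73.4% of those of RCOR3 (763 of 1039, 70.6 to 76.1%) and 73.6% of those of SIN3B (764 of 1038, 70.8 to 76.3%). Among the list-only peaks it was 7.21% for RCOR3 (194 of 2690, 6.26 to 8.26%) and 9.02% for SIN3B (384 of 4256, 8.18 to 9.92%). The intervals of shared and list-only peaks were thus far apart in both lists. With only the better-scoring 50% of each list, the share at REST of RCOR3-only peaks was 13.9%.

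**Figure D1:**
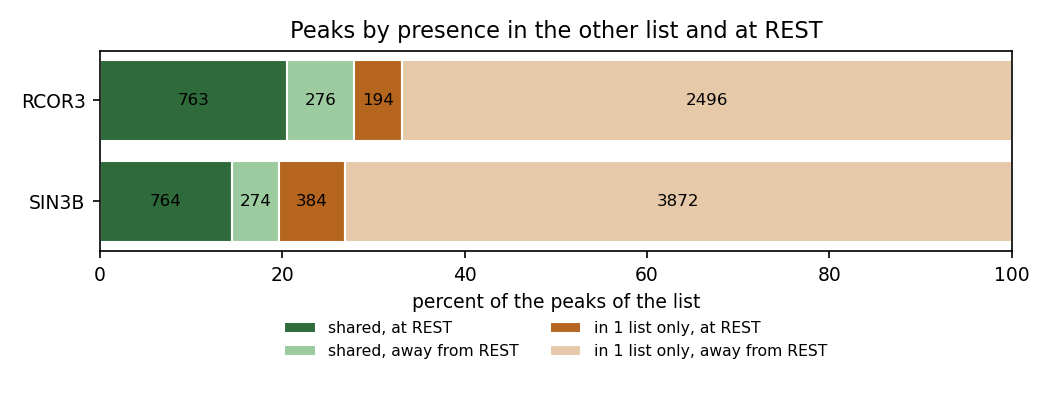
Percent of the peaks of each list (horizontal axis) that fell into 4 classes, with the number of peaks written in each bar segment. Peaks in 1 list only and away from REST made up the larger part of both lists, 2496 of 3729 for RCOR3 and 3872 of 5294 for SIN3B.

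Seen from the other side, 79.7% of the RCOR3 peaks at REST had SIN3B (763 of 957, 77.0 to 82.2%), against 9.96% of those away from REST (276 of 2772, 8.87 to 11.1%). Of the SIN3B peaks at REST, 66.6% had RCOR3 (764 of 1148, 63.7 to 69.3%), against 6.61% of those away from REST (274 of 4146, 5.87 to 7.41%). The lists differ in length, so each share is bounded by how many peaks the other list holds.

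Shared peaks lay close together. At REST the midpoints of RCOR3 and SIN3B were a median of 20 bp apart (quartiles 10 and 50 bp, 763 pairs), which is the step of the grid on which all peak starts lie. There, 72.2% of the pairs were within 40 bp (68.9 to 75.4%). Both proteins also centred on REST itself, with a median distance to the REST midpoint of 20 bp for RCOR3 and 20 bp for SIN3B. Away from REST the pairs were looser, with a median of 70 bp (quartiles 30 and 130 bp, 276 pairs) and 36.2% within 40 bp (30.6 to 42.2%). Few pairs sat near the limit: 19 RCOR3 peaks had their nearest SIN3B midpoint from 300 to under 400 bp away and 14 had it from 400 to under 500 bp away, compared with 461 at no more than 20 bp. Of the list-only peaks, 1074 RCOR3 and 2190 SIN3B peaks were at least 100000 bp from the nearest peak of the other protein. These were 28.8% of the whole RCOR3 list and 41.4% of the whole SIN3B list. The counts cover all chromosomes, including 8, 9 and X, where RCOR3 had few peaks.

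The strongest REST sites carried both proteins. RCOR3 and SIN3B were both present at 26.2% of REST peaks (806 of 3080, 24.6 to 27.8%), RCOR3 without SIN3B at 6.40% (197, 5.56 to 7.32%), SIN3B without RCOR3 at 12.5% (386, 11.4 to 13.8%) and neither at 54.9% (1691, 53.1 to 56.7%). Each REST peak was ranked by its score, the 4th column of the list, as a percentile of the REST list on which 100 is highest. The median percentile was 85.4 for REST peaks with both proteins (95% interval 84.4 to 86.6), 63.9 with SIN3B alone (61.8 to 66.4), 61.1 with RCOR3 alone (56.7 to 64.3) and 31.0 with neither (29.8 to 33.1). REST peaks with a single one of the proteins thus ranked between the other classes, and the intervals of the RCOR3-alone and SIN3B-alone classes overlapped. The highest REST score was 1121.33 among peaks with both, 106.68 with RCOR3 alone, 106.09 with SIN3B alone and 87.12 with neither. Without chromosomes 8 and 9 the value with SIN3B alone was 91.27, and the others were the same.

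Along the deciles of REST score, the class with both proteins rose steeply at the top while the classes with a single protein were highest in deciles 7 and 8. Both proteins were present at 9.0% of REST peaks in decile 6 (6.07 to 12.8%), 22.2% in decile 7, 42.0% in decile 8, 72.8% in decile 9 and 94.8% in decile 10 (292 of 308, 91.7 to 97.0%). SIN3B alone reached 26.8% in decile 7 and 26.9% in decile 8 (22.1 to 32.2%), and made up 3.25% of decile 10. RCOR3 alone was at its highest in decile 7, with 13.7% (10.1 to 18.1%), and at 1.62% in decile 10. The interval of SIN3B alone lay above that of RCOR3 alone in deciles 4, 7, 8 and 9, and the intervals overlapped in the other 6. The SIN3B list is the longer one, and the deciles were not compared at equal list length. Nor were they compared without chromosomes 8 and 9, where RCOR3 had few peaks (92 and 40).

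**Figure D2:**
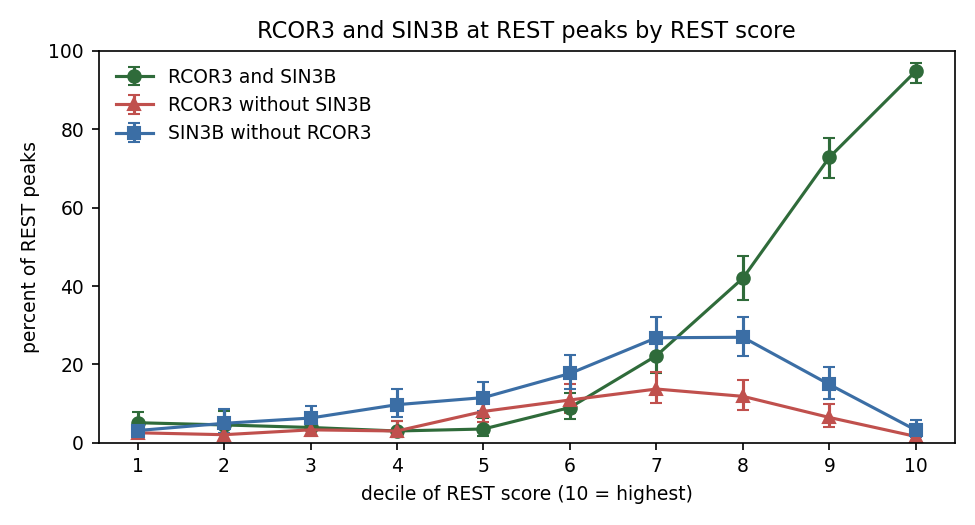
Percent of REST peaks (vertical axis) with both proteins, with RCOR3 but not SIN3B and with SIN3B but not RCOR3, by decile of REST score (horizontal axis, 10 highest), with exact 95% intervals. The class with both rose from 9.0% in decile 6 to 94.8% in decile 10, while SIN3B without RCOR3 was highest in deciles 7 and 8. Chromosomes 8 and 9, where RCOR3 had few peaks, are included.

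At REST peaks of like score, the share with SIN3B was higher where RCOR3 was present, in all 10 deciles, although the intervals overlapped in deciles 5 and 10. In decile 7, 61.8% of REST peaks with RCOR3 also had SIN3B (68 of 110, 52.1 to 70.9%), against 41.8% of those without RCOR3 (82 of 196, 34.8 to 49.1%). In decile 9 these shares were 91.8% (225 of 245) and 71.9% (46 of 64, 59.2 to 82.4%). The gap was wide at the weakest REST peaks. In decile 1, SIN3B was present at 66.7% of those with RCOR3 (18 of 27, 46.0 to 83.5%) and at 3.40% of those without it (11 of 324, 1.71 to 5.99%). However, neighbouring REST peaks can share 1 RCOR3 or SIN3B peak. REST peaks with both proteins numbered 18, 11, 13, 9 and 11 in deciles 1 to 5. Only 21 shared RCOR3 peaks had their nearest REST peak in the lower 50% of REST scores. Many of these weak REST peaks thus lay beside a stronger REST peak with the same partner, and the deciles were not recounted with neighbours merged.

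Within their own lists, shared peaks also ranked higher. The scores were coarse, with 130 distinct values in the RCOR3 list and 188 in the SIN3B list, and 23.7% of RCOR3 peaks carried the single value 10.87, so medians of percentiles moved in steps. Shared RCOR3 peaks had a median percentile of 71.4 (71.4 to 75.7) and RCOR3-only peaks of 35.3 (35.3 to 49.3). Shared SIN3B peaks had a median of 70.5 (66.8 to 73.3) and SIN3B-only peaks of 40.5 (40.5 to 49.5). Rank went with sharing mainly at REST. Peaks that were shared at REST had medians of 81.4 in the RCOR3 list and 76.9 in the SIN3B list. Shared peaks away from REST had medians of 49.3 and 49.5, the same values as list-only peaks at REST. List-only peaks away from REST had medians of 35.3 and 40.5.

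By quintile of own score, sharing at REST increased in both lists while sharing away from REST stayed low. Of RCOR3 peaks at REST, 58.4% had SIN3B in the lowest quintile (49.2 to 67.2%) and 93.3% in the highest (393 of 421, 90.5 to 95.5%). Of SIN3B peaks at REST, 44.2% had RCOR3 in the lowest quintile (35.8 to 52.9%) and 90.4% in the highest (350 of 387, 87.1 to 93.2%). Away from REST, 8.25 to 12.7% of RCOR3 peaks were shared across the quintiles. For SIN3B peaks away from REST the share was 5.24% in the lowest quintile, 8.35% in quintile 3 and 4.74% in the highest (34 of 717, 3.31 to 6.56%).

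**Figure D3:**
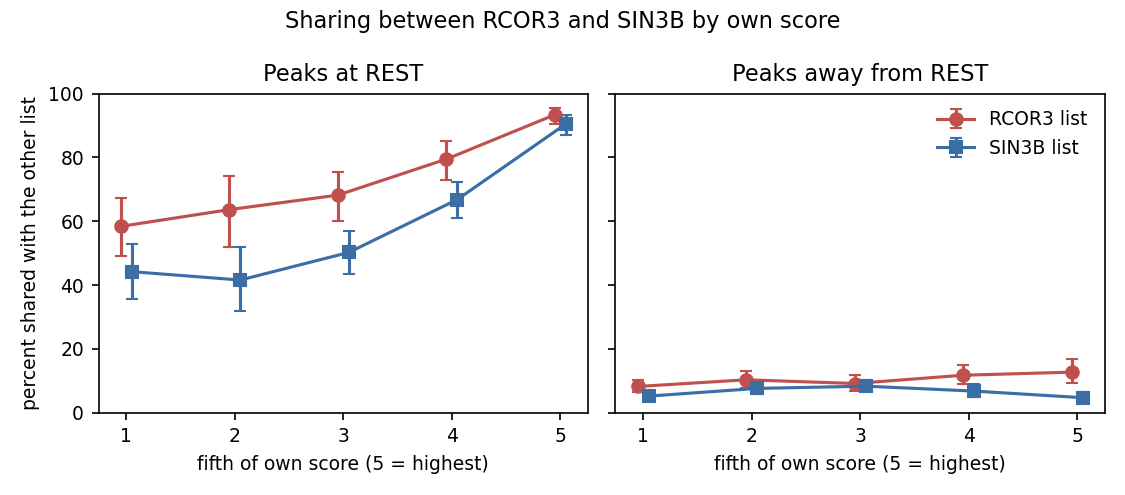
Percent of peaks shared with the other list (vertical axis) by quintile of the peak's own score (horizontal axis, 5 highest), for peaks at REST (left) and away from REST (right), with exact 95% intervals. At REST both lists rise to 93.3% and 90.4%, whereas away from REST no quintile exceeds 12.7%.

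The tops of both lists differed in what they were made of. Of the 50 highest-scoring RCOR3 peaks, 45 were shared with SIN3B (90%, 78.2 to 96.7%) and 44 lay at REST (88%, 75.7 to 95.5%). Of the 50 highest-scoring SIN3B peaks, 17 were shared with RCOR3 (34%, 21.2 to 48.8%) and 16 lay at REST (32%, 19.5 to 46.7%). Over the highest 200 ranks, ties included, 149 of 208 RCOR3 peaks (71.6%, 65.0 to 77.7%) and 64 of 200 SIN3B peaks (32%, 25.6 to 39.0%) lay at REST. The RCOR3 share fell toward the list average with more peaks, to 62.8% over 503 peaks, while that of SIN3B was 33.3% over 525 peaks.

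List-only peaks away from REST had few peaks of RCOR2 or SIN3A from the other family. They had RCOR2 (RCOR3 list) or SIN3A (SIN3B list) from the same family at a share near that of the whole list. RCOR2, a further CoREST protein, was present at 6.73% of all RCOR3 peaks and at 1.59% of all SIN3B peaks, and SIN3A, the paralog of SIN3B, at 7.19% and 13.7%. RCOR3-only peaks away from REST had RCOR2 at 7.25% (181 of 2496, 6.26 to 8.34%) and SIN3A at 1.16% (29, 0.779 to 1.66%). RCOR1, also a CoREST protein, went the other way, at 1 of these 2496 peaks (0.0401%) against 1.50% of all RCOR3 peaks. SIN3B-only peaks away from REST had SIN3A at 12.0% (464 of 3872, 11 to 13.0%) and RCOR2 at 0.362% (14, 0.198 to 0.606%). By definition these classes leave out peaks of the other list, where SIN3A was at 724 SIN3B and RCOR2 at 251 RCOR3 peaks. The low shares of the other family thus follow in part from how the classes were made. RCOR2 and SIN3A at the list-only peaks of their own family were concentrated at high scores. In the highest RCOR3 quintile, 31.0% of the RCOR3-only peaks away from REST had RCOR2 (85 of 274, 25.6 to 36.9%), against 3.37% in the lowest (27 of 801). In the highest SIN3B quintile, 27.1% of the SIN3B-only peaks away from REST had SIN3A (185 of 683, 23.8 to 30.6%), against 5.96% in the lowest (55 of 923). Among the 50 highest SIN3B peaks, 33 were SIN3B-only and away from REST, and 23 of these had SIN3A and 0 had RCOR2. Of all 50, 39 had SIN3A and 15 had RCOR2, so SIN3A was frequent among these top peaks in general. Among the 102 RCOR3 peaks of the highest 100 ranks, 19 were RCOR3-only and away from REST, and 12 of these had RCOR2 and 0 had SIN3A. Of all 102, 56 had RCOR2 and 60 had SIN3A.

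Shared peaks at REST held the highest shares of SIN3A and RCOR1 among the 4 classes of RCOR3 peaks. SIN3A was at 25.3% of the RCOR3 peaks of that class (193 of 763, 22.2 to 28.5%), RCOR1 at 6.95% (53, 5.25 to 8.99%) and RCOR2 at 7.73% (59, 5.94 to 9.86%). RCOR1 was at 1.50% of all RCOR3 peaks. Of the RCOR3-only peaks at REST, 4.12% had SIN3A (8 of 194, 1.80 to 7.96%), 0.515% RCOR2 and 1.03% RCOR1. Of the SIN3B-only peaks at REST, 7.29% had SIN3A (28 of 384, 4.90 to 10.4%) and 0.781% RCOR2. RCOR3 peaks shared away from REST had SIN3A at 13.8% (38 of 276, 9.93 to 18.4%), RCOR2 at 3.62% (10, 1.75 to 6.56%) and no RCOR1 (0 of 276, upper bound 1.33%). Shared REST sites also had the higher REST scores, and the part of score in these differences was not tested.

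The ranks of RCOR3 and SIN3B rose together at shared REST sites, and hardly at shared sites elsewhere. Over the 763 RCOR3 peaks that were shared at REST, the RCOR3 and SIN3B percentiles had a Spearman rho of 0.587, the RCOR3 and REST percentiles 0.686 and the SIN3B and REST percentiles 0.684. Over the 276 shared peaks away from REST, the rho between RCOR3 and SIN3B was 0.017. These are descriptions across sites of the same libraries, and many sites share a tied score. Both proteins were in their own highest 20% at 34.3% of the shared peaks at REST (262 of 763, 31.0 to 37.8%) and at 1.09% of those away from REST (3 of 276, 0.225 to 3.14%). The 262 sites had a median REST percentile of 95.2, and the 281 sites at REST with neither protein in its highest 20% had one of 76.5. List-only peaks at REST followed REST more loosely, with a rho of 0.313 for RCOR3 (194 peaks) and 0.297 for SIN3B (384 peaks).

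**Figure D4:**
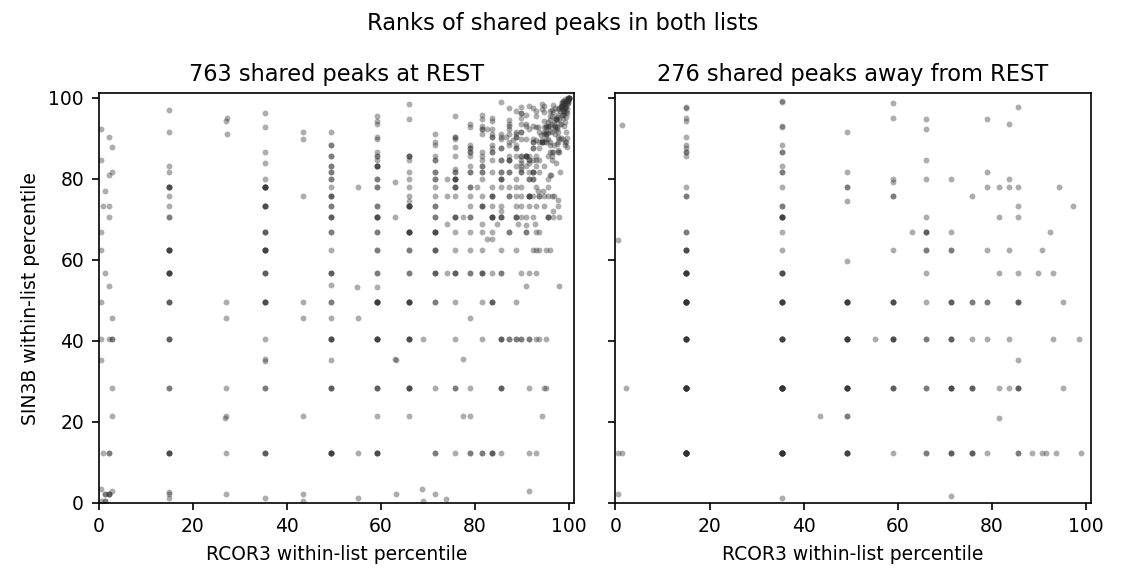
Within-list percentile of RCOR3 (horizontal axis) and of the nearest SIN3B peak (vertical axis) for shared peaks at REST (left, 763 points) and away from REST (right, 276 points), with 1 point per RCOR3 peak. The points crowd into the upper right corner only at REST, and the columns and rows of points are tied scores.

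Peak width separated shared from list-only peaks little for RCOR3, and more for SIN3B at REST. The narrowest width in the lists, 40 bp, was that of 42.9% of shared (39.9 to 46.0%) and 37.3% of RCOR3-only peaks (35.5 to 39.2%), and of 52.0% of shared (48.9 to 55.1%) and 37.4% of SIN3B-only peaks (35.9 to 38.9%). Of RCOR3 peaks at REST, 47.6% of shared and 47.4% of list-only ones were 40 bp wide. Away from REST these parts were 30.1% and 36.5%. For SIN3B they were 58.6% and 48.7% at REST, and 33.6% and 36.3% away from REST. In both lists the intervals of shared and list-only peaks overlapped away from REST. Median widths were 60 bp in both RCOR3 classes, and 40 bp for shared and 60 bp for SIN3B-only peaks. Wider SIN3B peaks had a lower shared part, which was 25.3% at 40 bp (540 of 2131, 23.5 to 27.2%) and 13.4% at 200 bp and wider (79 of 591, 10.7 to 16.4%). Of the SIN3B peaks at 200 bp and wider, 10.5% lay at REST, against 29.8% of the 40 bp peaks. Away from REST the SIN3B share was 6.15% at 40 bp (4.99 to 7.49%) and 7.75% at 200 bp and wider (5.62 to 10.4%), and these intervals overlap. At REST it was 70.6% at 40 bp (66.8 to 74.1%), 57.4% at 80 to 120 bp (47.2 to 67.2%) and 61.3% at 200 bp and wider (48.1 to 73.4%). For RCOR3 the shared part was 30.8% at 40 bp (28.4 to 33.2%), 25.6% at 60 bp (22.9 to 28.4%), 23.7% at 80 to 120 bp (20.4 to 27.2%), 28.6% at 140 to 180 bp (24.2 to 33.3%) and 30.2% at 200 bp and wider (24.3 to 36.7%), so it was lowest at middle widths.

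Chromosomes 8 and 9 differed from the other autosomes in RCOR3. On the 17 remaining autosomes RCOR3 had 96 to 376 peaks, but it had 92 on chromosome 8 and 40 on chromosome 9. SIN3B had 466 peaks on chromosome 8 and 309 on chromosome 9, within its range of 121 to 486 on the others. Relative to REST, however, SIN3B was high on chromosome 8, where it had 466 peaks to 164 of REST. On chromosome 11, which held the most SIN3B peaks, it had 486 to 247. Chromosome X, outside the crowded stretch, held 2 RCOR3 and 26 SIN3B peaks. Of the 40 RCOR3 peaks on chromosome 9, 28 were shared (70%, 53.5 to 83.4%) and 24 lay at REST (60%, 43.3 to 75.1%), whereas on the 17 other autosomes 19.6 to 31.2% were shared and 15.6 to 33.2% lay at REST. On chromosome 8, 33.7% of RCOR3 peaks were shared (31 of 92, 24.2 to 44.3%). Of the SIN3B peaks, 6.87% were shared on chromosome 8 (32 of 466, 4.74 to 9.56%) and 9.06% on chromosome 9 (28 of 309, 6.11 to 12.8%), below the 15.9 to 28.1% of the 17 other autosomes.

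The difference was also seen at REST peaks that had SIN3B. SIN3B without RCOR3 was at 27.4% of the REST peaks of chromosome 8 (45 of 164, 20.8 to 34.9%) and 25.8% of those of chromosome 9 (47 of 182, 19.6 to 32.8%), against 6.33 to 18.2% on the 17 other autosomes. RCOR3 without SIN3B was at 2.44% on chromosome 8 (4 of 164) and at none on chromosome 9 (0 of 182, upper bound 2.01%), against 3.42 to 11.9%. At REST percentiles of 80 and above, RCOR3 was present at 57.5% on chromosome 9 (23 of 40, 40.9 to 73.0%), 66.7% on chromosome 8 (14 of 21, 43.0 to 85.4%) and 90.8% on all other chromosomes (505 of 556, 88.1 to 93.1%). SIN3B was present at 95% (38 of 40, 83.1 to 99.4%), 95.2% (20 of 21, 76.2 to 99.9%) and 92.6% (515 of 556, 90.1 to 94.7%) of the same peaks. At REST percentiles from 50 to 80, RCOR3 was at 1 of 57 REST peaks of chromosome 9 (1.75%, 0.0444 to 9.39%) and at 40.1% of those of all other chromosomes (330 of 823, 36.7 to 43.5%), while SIN3B was at 43.9% (25 of 57) and 48.0% (395 of 823). On chromosome 8 SIN3B was itself frequent at weak REST peaks: in the lower 50% of REST scores it was at 22.3% (21 of 94, 14.4 to 32.1%), against 10.3% on all other chromosomes than 8 and 9 (139 of 1355, 8.69 to 12.0%). Of the 3872 SIN3B-only peaks away from REST, 389 lay on chromosome 8, which held 8.80% of the whole SIN3B list. SIN3A was at 88 of these 389 peaks, against 464 of all 3872 (12.0%). Elsewhere than on chromosomes 8 and 9, RCOR3 and SIN3B were thus found at the strongest REST peaks at shares whose intervals overlap. No source used here gives depth or coverage per chromosome, and their part in this result was not tested.

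**Figure D5:**
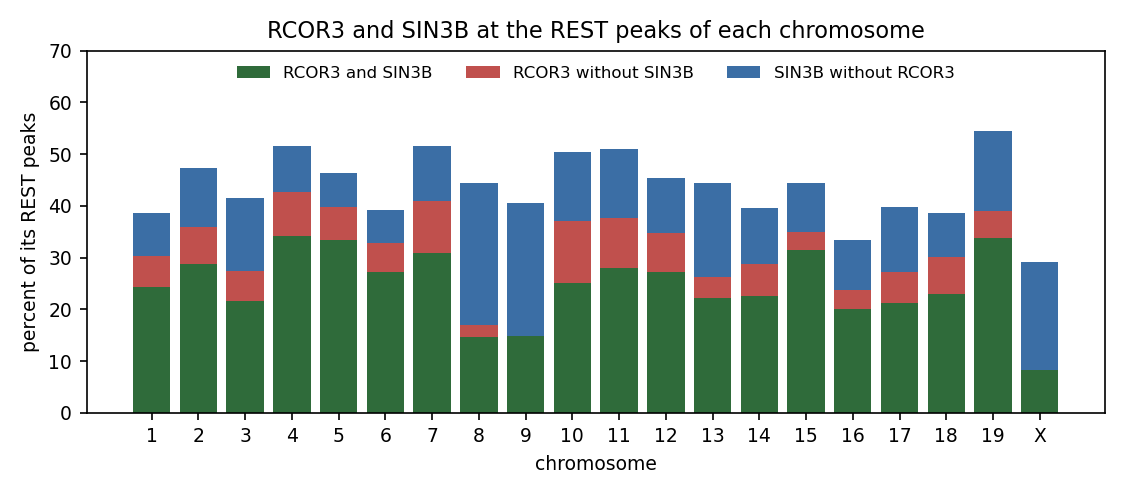
Percent of the REST peaks of each chromosome (vertical axis) that had both proteins, RCOR3 without SIN3B or SIN3B without RCOR3, stacked, by chromosome (horizontal axis). Chromosomes 8 and 9 have the tallest SIN3B-without-RCOR3 segments, 27.4% and 25.8%, and chromosome 9 has no RCOR3-without-SIN3B segment. Chromosome X holds only 24 REST peaks.

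Without chromosomes 8 and 9 the contrast between shared and list-only peaks remained. The share at REST was 73.3% of shared and 7.26% of RCOR3-only peaks, and 73.5% of shared and 8.27% of SIN3B-only peaks. RCOR3 was then at 21.6% of SIN3B peaks (978 of 4519, 20.4 to 22.9%) and SIN3B at 27.2% of RCOR3 peaks (980 of 3597, 25.8 to 28.7%). SIN3B without RCOR3 was at 10.8% of REST peaks (294 of 2734, 9.62 to 12.0%) and RCOR3 without SIN3B at 7.06% (193, 6.13 to 8.08%), so the difference between them was smaller than with these chromosomes and the intervals were still apart. With all chromosomes but SIN3B limited to its 4142 highest-scoring peaks, about the length of the RCOR3 list, the intervals overlapped, at 9.87% for SIN3B without RCOR3 (8.84 to 11%) and 8.70% for RCOR3 without SIN3B (7.73 to 9.75%). SIN3A was at 10.6% of the SIN3B-only peaks away from REST (345 of 3248, 9.58 to 11.7%) and RCOR2 at 6.96% of the RCOR3-only ones (169 of 2427, 5.98 to 8.05%).

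Single sites show the classes. Positions are on mouse build mm8 as deposited. Shared sites were ordered by the mean of their RCOR3 and SIN3B percentiles. Those highest at REST were at the head of every list: at chr7:6014231-6014271 RCOR3 ranked 1 with a score of 378.03, and SIN3B (253.67) and REST (1121.33) also ranked 1. RCOR3 peaks at chr19:4989151-4989191 and chr14:62635811-62635851 ranked 3 and 2, with SIN3B at ranks 2 and 7 and REST at ranks 4 and 6. All 3 sites also had RCOR1, RCOR2 and SIN3A. Away from REST, the shared sites with the highest mean of both percentiles had RCOR3 at lower ranks: RCOR3 at chr16:96250091-96250351, chr3:84391491-84391531 and chr5:121806711-121806751 ranked 505, 577 and 736, and SIN3B there ranked 124, 330 and 272. Single proteins scored higher at other shared peaks away from REST, up to 55.2 for RCOR3 and 73.78 for SIN3B.

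The highest RCOR3-only peaks away from REST were at chr11:117719891-117719931 (score 78.62, rank 18) and chr7:48996091-48996131 (66.07, rank 25), both with RCOR2, at ranks 26 and 12 of its list. The highest SIN3B-only peaks away from REST were at chr8:87950151-87950191 (117.71, rank 6), chr10:76702931-76702971 (115.23, rank 7) and chr5:139714271-139714311 (111.91, rank 10), all with SIN3A and without RCOR2. The highest RCOR3-only peak at REST, at chr4:120364091-120364151, ranked 62 with a score of 41.82, and its REST peak ranked 118. The highest SIN3B-only peaks at REST were at chr11:115716231-115716451 (43.11, rank 188), chr9:21158591-21158631 (42.28, rank 195) and chr14:23595651-23595691 (38.13, rank 245). The strongest REST peak with SIN3B alone, at chr8:127679491-127679531, ranked 120, and the strongest with neither protein, at chr12:102951731-102951771, ranked 193. In both lists, then, the highest peaks outside the shared class were those away from REST.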

How the data were processed

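Each library came with 1 list of peaks from the authors, in 4 columns for chromosome, start, end and a score. The score that the authors gave each peak has no stated meaning, so it was used only to rank peaks within a list. Build mm8 comes from the names of the deposited lists. No source used here gives the aligner, peak caller, control, threshold or read depth. Per the labels' protocols, libraries had 15 cycles of PCR and fragments of about 250 bp.

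Midpoints within 399 bp were called shared. Percentiles average tied scores, and quintiles and deciles keep ties together. Where a peak had several partners, the nearest was used. Intervals are exact Clopper-Pearson intervals for shares and binomial order-statistic intervals for medians, both at 95%, computed with Python 3.11.15 and scipy 1.17.1 after the procedures were tested on simulated data. No test was run, since each protein has 1 library. The proteins, classes and distance were chosen with earlier results of these data known. Named sites come from the 3 highest of each class, ordered by own score for list-only peaks, by REST score for REST peaks and by the mean RCOR3 and SIN3B percentile for shared peaks, with some left out. In all, 8 alternatives were tried. No genome or gene annotation of build mm8 was used here, so sites carry no gene names or sequences.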

Additional observations from a re-analysis of the deposited data

How the results depend on the processing

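Of 128 values, 16 results under 8 alternatives, 91 stayed within the 95% interval of the reported value, and the share at REST was higher for shared than for list-only peaks under each of the 8. With the better-scoring 50% of both lists, shared peaks were 29.3% of RCOR3 and 21.4% of SIN3B. The shares at REST were 87.8% of shared RCOR3, 88.1% of shared SIN3B, 13.9% of RCOR3-only and 12.4% of SIN3B-only peaks. REST peaks had both proteins at 18.5% and SIN3B alone at 9.32%. Median REST percentiles were 89.2 with both, 70.7 with RCOR3 alone and 70.7 with SIN3B alone, and the median SIN3B percentile of shared SIN3B peaks was 66.3. With SIN3B limited to its 4142 highest-scoring peaks (the length of the RCOR3 list plus ties), shared peaks were 24.6% of RCOR3 and 22.0% of SIN3B, and 9.28% of RCOR3-only peaks lay at REST. Both proteins were then at 23.9%, RCOR3 alone at 8.70% and SIN3B alone at 9.87% of REST peaks, and the intervals of the single-protein classes overlapped. The cut removed the lowest-scoring SIN3B peaks, so list length and score changed together, and their parts were not tested. Median REST percentiles were 86.8 with both and 64.5 with RCOR3 alone. With intervals as deposited, shared peaks were 21.5% of RCOR3 and 15.1% of SIN3B. REST peaks had both at 18.9% and RCOR3 alone at 7.34%, with median REST percentiles of 87.2 with both, 70.8 with RCOR3 alone and 68.6 with SIN3B alone. Within 1000 bp, 70.5% of shared SIN3B peaks lay at REST, and within 200 bp 24.5% of REST peaks had both. Without chromosomes 8 and 9, SIN3B alone was at 10.8% of REST peaks, 21.6% of SIN3B peaks were shared and the median percentile of SIN3B-only peaks was 40.3. Percentiles were ranked again within each list that was cut, merged or extended, so small shifts in them can come from the ranking. On the ranks of the whole list, the median without chromosomes 8 and 9 was 40.5, as reported. With neighbouring peaks merged, median percentiles were 35.2 for RCOR3-only, 71.3 for shared RCOR3, 49.1 for SIN3B-only and 70.1 for shared SIN3B peaks, where 49.1 is 1 tied step above the reported 40.5. With the stretch of chromosome X kept they were 35.3 for RCOR3-only, 71.4 for shared RCOR3 and 40.5 for SIN3B-only peaks. Apart from the limits named, the causes were not tested. No paired analysis was possible because each protein has 1 library. Read depth is not given, so a peak missing from a list may lie below that list's threshold.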

Other observations

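Neighbours within the same list were counted for shared and list-only peaks. Within 5000 bp of another peak of the same list lay 11.6% of RCOR3-only peaks (313 of 2690, 10.4 to 12.9%) and 7.80% of shared RCOR3 peaks (81 of 1039, 6.24 to 9.60%). For SIN3B these shares were 15.0% of SIN3B-only (637 of 4256, 13.9 to 16.1%) and 9.63% of shared peaks (100 of 1038, 7.91 to 11.6%).

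The widest RCOR3 peak, at chr4:3009331-3012391, spanned 3060 bp, where the next widest spanned 700 bp. Its score was 17.56, at rank 652. It counted as RCOR3-only and away from REST because its midpoint was 1290 bp from a SIN3B and 1260 bp from a REST midpoint. It was noticed after its width was seen.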
